A study of Mus musculus with 24 samples.

Results

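The genes described here are 10 genes of TGF-beta signalling and of the transcriptional co-activator YAP: the TGF-beta ligands Tgfb1, Tgfb2 and Tgfb3, the receptor Tgfbr2, the feedback genes Smad7 and Skil, and the YAP target genes Ctgf, Cyr61, Ankrd1 and Amotl2. They were taken by symbol, as 10 of the 23478 gene symbols of a count table of 24 RNA libraries. All 10 passed the filter on low counts and are among the 12625 genes tested. The libraries come from 4T1-T cells, a line derived from the 4T1 mouse mammary carcinoma. Before RNA was made, the cells had been isolated from lung metastases or from primary tumors, selected with 6TG, infected with an shRNA and cultured in DMEM supplemented with non-essential amino acids, and all 6 groups share these steps. The groups are lung-derived cells with shAsns-1, shAsns-2 or shRenilla and tumor-derived cells with shAsns-1, shAsns-2 or shRenilla, with 4 libraries each, lettered A to D. shAsns-1 and shAsns-2 are hairpins against Asns, which encodes asparagine synthetase, and shRenilla is the control hairpin. The labels do not say whether the letters stand for separate mice, cultures or preparations, so the p-values below measure the spread between these libraries, which may be partly technical.

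TGF-beta ligands are secreted in a latent form and, once released, bring the receptors TGFBR2 and TGFBR1 together, which phosphorylates SMAD2 and SMAD3. The SMADs enter the nucleus and switch on genes that include Smad7 and Skil, whose products dampen the same pathway. YAP and its partner TAZ, encoded by Wwtr1, bind the TEAD transcription factors when the Hippo kinases are off, and Ctgf, Cyr61, Ankrd1 and Amotl2 are their textbook targets. Ctgf and Cyr61 are also targets of TGF-beta in many cells, and in mammary carcinoma both pathways are studied for their links to epithelial-mesenchymal transition and to metastasis.

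The libraries held between 8.48 and 38 M counts, with the lowest in tumor shAsns-2 A. Asns itself averaged 194 ± 18.2 CPM (counts per M counts of the library, with library sizes scaled by TMM; mean ± SD, n = 4 libraries per group throughout) in lung shAsns-1, 44.6 ± 6.51 CPM in lung shAsns-2 and 63.6 ± 7.89 CPM in lung shRenilla. In tumor-derived cells it averaged 170 ± 17.1 CPM with shAsns-1, 36.8 ± 10.3 CPM with shAsns-2 and 82.8 ± 15.9 CPM with shRenilla. The libraries labelled shAsns-1 thus go against a knockdown label at both sites, so each shAsns-1 direction given here is one between labels only. Markers of lung epithelium summed to at most 0.253 CPM in any library, with 1 to 3 of 5 genes at 0 counts throughout a group, whereas the 6 carcinoma markers summed to between 380 and 1040 CPM. Fibroblast markers summed to 34.3 to 70.2, 24.1 to 27.3 and 26.3 to 51.4 CPM in lung shAsns-1, shAsns-2 and shRenilla and to 24 to 32.4, 19 to 23.3 and 17.5 to 21.1 CPM in the same order in tumor. Most of that sum was Pdgfra (median 24.7 CPM), while Col1a1, Col3a1 and Thy1 had medians of 0.0672, 0.105 and 0 CPM. Lung shAsns-1 D stood apart in these markers: it was the highest of the 24 libraries in 7 of 9 fibroblast markers, with 8.53 CPM of Col3a1 and 8.61 CPM of Dcn, against at most 1.6 and 2.92 CPM in any other library, and it was highest in Lyz2 (7.84 CPM) and Acta2 (5.21 CPM) too.

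Most of the 10 genes were lower in the tumor-derived cells labelled shAsns-1 than in either other tumor-derived group: Ctgf, Cyr61, Ankrd1, Amotl2, Tgfb2 and Skil passed the test in both comparisons. Against tumor shRenilla, 7 of 10 members were lower and 0 higher in tumor shAsns-1 (edgeR quasi-likelihood test, Benjamini-Hochberg adjusted p under 0.05), where 33.9% of all tested genes were called in either direction and 17.7% lower. The 7 were Ctgf, Cyr61, Ankrd1, Amotl2, Tgfb2, Skil and Smad7, and the median log2 fold change of the 10 members was -0.69, beside -0.01 over all tested genes. Between tumor shAsns-1 and tumor shAsns-2, again 7 members were lower and 0 higher, with 27.1% of all genes called and 15% called lower, and the medians were -0.56 and -0.02. In place of Smad7, the seventh was Tgfbr2. These 2 comparisons share the tumor shAsns-1 libraries. The 10 genes and the gene lists below were chosen with earlier results of these data known. Shares over all genes thus stand beside their counts for scale and are not a test of an excess. In bulk RNA, fewer cells that express a gene and less of its RNA per cell cannot be told apart, for these and all later results.

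**Figure D1:**
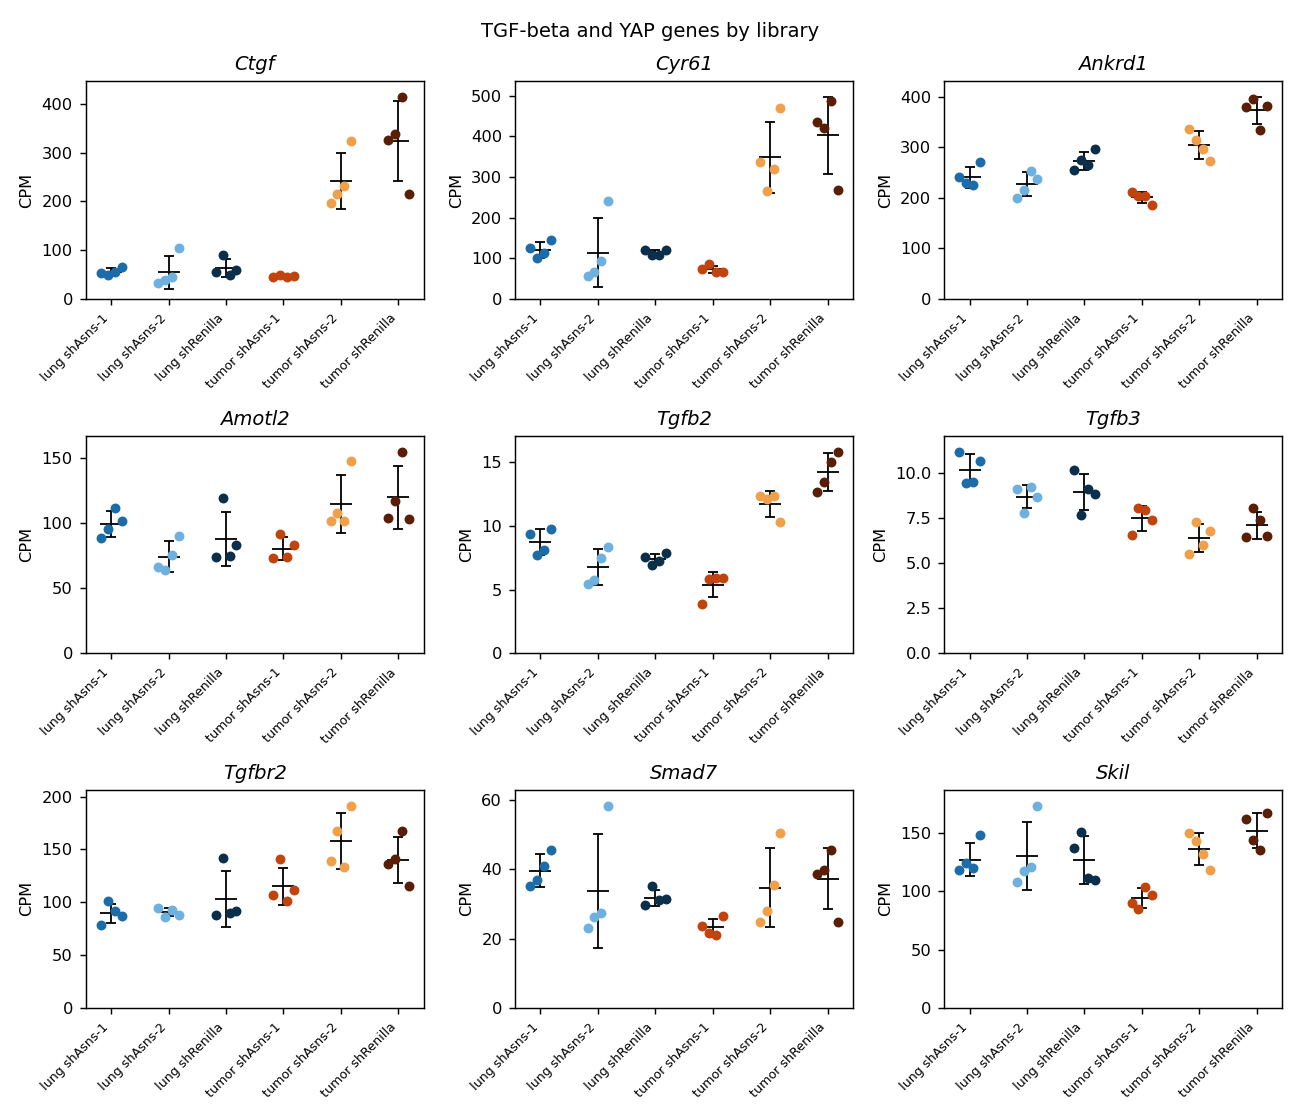
Levels of 9 of the genes in CPM (vertical axes, linear, starting at 0) in each of the 24 libraries, as dots in the order A to D within each group, with the group mean and SD as bars. In the Ctgf and Cyr61 panels the tumor shAsns-2 and tumor shRenilla libraries lie at 196 CPM and above, while the tumor shAsns-1 libraries lie at 85 CPM and below; Tgfb1, with at most 13 counts in a library, is left out.

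Ctgf, which encodes the matricellular protein CCN2, showed the widest range of the 10 genes, with a group mean 7.04 times higher in tumor shRenilla than in tumor shAsns-1. In lung-derived cells its level in libraries A to D was 54.1, 49.5, 55.7 and 65.3 CPM with shAsns-1, 31.8, 38.1, 45.4 and 105 CPM with shAsns-2 and 55.3, 89.7, 49.6 and 59.6 CPM with shRenilla. In tumor-derived cells it was 44.6, 48.4, 44 and 46.9 CPM with shAsns-1, 196, 215, 231 and 324 CPM with shAsns-2 and 327, 339, 414 and 215 CPM with shRenilla. The 4 tumor shAsns-1 libraries lay within 5 CPM of each other and below every other tumor library, and inside the range of the lung libraries. Ctgf was lower in tumor shAsns-1 than in tumor shRenilla (log2 fold change -2.82 ± 0.28 SE, adjusted p = 1.62e-08) and than in tumor shAsns-2 (-2.39 ± 0.27, adjusted p = 2.91e-07). Between tumor shAsns-2 and tumor shRenilla it was not called (-0.42 ± 0.26, adjusted p = 0.772) and the libraries overlapped. Its exons overlap 665 bases of Gm15270 on the opposite strand (Ctgf is Ccn2 in GENCODE M21, chr10:24595442-24598683, plus strand, GRCm38), and since the strand setting of the counting is not given in the sources used here, reads of the pair cannot be told apart.

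Cyr61 encodes the related matricellular protein CCN1, and its tumor-derived groups stood in the same order as those of Ctgf. In lung it had 126, 99.6, 112 and 146 CPM with shAsns-1, 56.1, 67.2, 92.2 and 241 CPM with shAsns-2 and 120, 109, 107 and 120 CPM with shRenilla. In tumor it had 73.6, 85, 65.6 and 66.5 CPM with shAsns-1, 336, 265, 319 and 470 CPM with shAsns-2 and 435, 419, 487 and 268 CPM with shRenilla. No tumor shAsns-1 library reached any library of the other tumor groups, and lung shAsns-2 D stood far above the other 3 libraries of its group, as it did for Ctgf. Cyr61 was lower in tumor shAsns-1 than in tumor shRenilla (-2.47 ± 0.30, adjusted p = 5.49e-07) and than in tumor shAsns-2 (-2.26 ± 0.30, adjusted p = 3.17e-06).

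The promoter of Cyr61 is shown whole because Cyr61 is a strongly varying member whose promoter matches the TEAD motif: it holds CATTCC, the reverse complement of GGAATG, at -103 to -98 from the RefSeq start site. The 250 bases before that site are given 5′ to 3′ on the gene's strand, with the motif in capitals (RefSeq, GRCm38.p6, chr3:145649986-145650235, minus strand).
Cyr61: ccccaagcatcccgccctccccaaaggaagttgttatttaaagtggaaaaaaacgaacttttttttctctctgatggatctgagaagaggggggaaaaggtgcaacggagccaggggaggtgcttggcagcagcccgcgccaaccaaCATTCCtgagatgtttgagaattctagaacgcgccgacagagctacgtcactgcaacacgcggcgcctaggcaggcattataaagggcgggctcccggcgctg

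Promoters of 6 members were searched in the RefSeq table, 3 of them of YAP target genes. All 3 of these held GGAATG or CATTCC on either strand in the 250 bases, as did 12.6% of 32851 mouse promoters of that length. The 30-base windows below are aligned so that each reads GGAATG, in capitals, whichever strand the gene is on. They lie at chr3:145650071-145650100 (plus strand) for Cyr61, at chr19:36120037-36120066 and chr19:36119950-36119979 (minus strand) for Ankrd1, and at chr9:102717727-102717756 (minus strand) for Amotl2.
Cyr61: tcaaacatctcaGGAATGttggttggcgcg
Ankrd1 at -210: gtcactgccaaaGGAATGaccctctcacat
Ankrd1 at -123: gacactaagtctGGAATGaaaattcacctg
Amotl2: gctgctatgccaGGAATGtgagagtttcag
The match of Ankrd1 at -123 shares 1 base with GTCTG, the reverse complement of the SMAD motif CAGAC, which ends there. The 250 bases of Ankrd1 and of Amotl2 overlap annotated exons of the same genes in GENCODE M21. A match is a description of the letters, and whether TEAD factors bind these sites in these cells was not measured.

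Ankrd1, which encodes an ankyrin repeat protein first described in heart muscle, moved in the same comparisons over a narrower range. In lung it had 241, 229, 225 and 271 CPM with shAsns-1, 200, 216, 254 and 238 CPM with shAsns-2 and 255, 274, 265 and 296 CPM with shRenilla. The tumor-derived libraries had 211, 204, 203 and 185 CPM with shAsns-1, 336, 314, 296 and 272 CPM with shAsns-2 and 380, 396, 335 and 382 CPM with shRenilla. The tumor shAsns-1 libraries again lay below all other tumor libraries, and the spread within groups was small, so that a change of this size passed the test with a low p (tumor shAsns-1 against tumor shRenilla -0.89 ± 0.10, adjusted p = 1.00e-07; against tumor shAsns-2 -0.60 ± 0.10, adjusted p = 4.89e-05). Ctgf differed by more than Ankrd1, and the CPM ratio of Ctgf to Ankrd1 was 0.23 ± 0.0197 in tumor shAsns-1, 0.81 ± 0.267 in tumor shAsns-2 and 0.878 ± 0.275 in tumor shRenilla. The ratio was 0.232 ± 0.0147, 0.239 ± 0.136 and 0.233 ± 0.0639 in lung shAsns-1, shAsns-2 and shRenilla. In lung shAsns-2 it was 0.443 in D and 0.159 to 0.179 in A to C, which lay below the tumor shAsns-1 range of 0.211 to 0.254.

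Amotl2 encodes an angiomotin-like scaffold that binds YAP and holds it in the cytoplasm, so it is both a target and an inhibitor of YAP. It had 88.5, 95.3, 112 and 102 CPM in lung shAsns-1, 66.4, 64.1, 75.5 and 90.4 CPM in lung shAsns-2 and 74.4, 119, 74.9 and 83.3 CPM in lung shRenilla. Tumor-derived cells had 73.2, 91.5, 73.8 and 83.4 CPM with shAsns-1, 102, 108, 102 and 148 CPM with shAsns-2 and 104, 117, 155 and 103 CPM with shRenilla. The tumor shAsns-1 libraries did not overlap the other tumor groups, though their highest, 91.5 CPM, stood close to the lowest of the others, 102 CPM. Amotl2 was lower in tumor shAsns-1 than in tumor shRenilla (-0.57 ± 0.16, adjusted p = 0.00639) and than in tumor shAsns-2 (-0.52 ± 0.16, adjusted p = 0.017). The second call was lost without tumor shAsns-1 C (adjusted p = 0.0558) and without tumor shAsns-2 D, its highest library (adjusted p = 0.0933).

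Among the ligands, Tgfb2 followed the YAP targets and Tgfb3 did not. Tgfb2 had 9.37, 7.67, 8.13 and 9.77 CPM in lung shAsns-1, 5.42, 5.73, 7.45 and 8.35 CPM in lung shAsns-2 and 7.54, 6.96, 7.27 and 7.9 CPM in lung shRenilla. In tumor it had 3.89, 5.86, 5.92 and 5.91 CPM with shAsns-1, 12.3, 12.1, 12.3 and 10.3 CPM with shAsns-2 and 12.6, 13.4, 15 and 15.8 CPM with shRenilla. The 3 tumor groups did not overlap at all for Tgfb2. It was lower in tumor shAsns-1 than in tumor shRenilla (-1.39 ± 0.15, adjusted p = 5.36e-08) and than in tumor shAsns-2 (-1.12 ± 0.15, adjusted p = 3.32e-06), while tumor shAsns-2 against tumor shRenilla was not called (-0.27 ± 0.14, adjusted p = 0.738). Tgfb2 shares 124 exonic bases with Gm29491 on the opposite strand.

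Tgfb3 had 11.2, 9.46, 9.52 and 10.7 CPM in lung shAsns-1, 9.12, 7.8, 9.21 and 8.67 CPM in lung shAsns-2 and 10.2, 7.7, 9.14 and 8.85 CPM in lung shRenilla. Levels in tumor were 6.56, 8.09, 7.95 and 7.41 CPM with shAsns-1, 5.5, 7.27, 6.03 and 6.78 CPM with shAsns-2 and 6.45, 8.05, 7.38 and 6.52 CPM with shRenilla. All 3 tumor groups overlapped, and Tgfb3 was not called between tumor shAsns-1 and tumor shRenilla (0.08 ± 0.12, adjusted p = 0.642). Its exons overlap 257 bases of Gm48008 and 163 bases of Gm37804, both on the opposite strand.

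Tgfb1, the ligand most often measured in carcinoma, was close to undetected. It had 0 to 13 counts in a library and 139 counts over all 24, with 22, 19 and 22 counts summed over lung shAsns-1, shAsns-2 and shRenilla and 35, 19 and 22 counts summed over the same labels in tumor. It was called in 0 of the 11 comparisons by edgeR. At these counts the standard errors of its log2 fold changes were 0.54 and more, so only large differences could have been called. Per kilobase of merged exons (GENCODE M21), Tgfb1 averaged 0.0413 CPM over the 24 libraries, against 2.41 CPM for Tgfb3 and 1.56 CPM for Tgfb2.

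**Figure D2:**
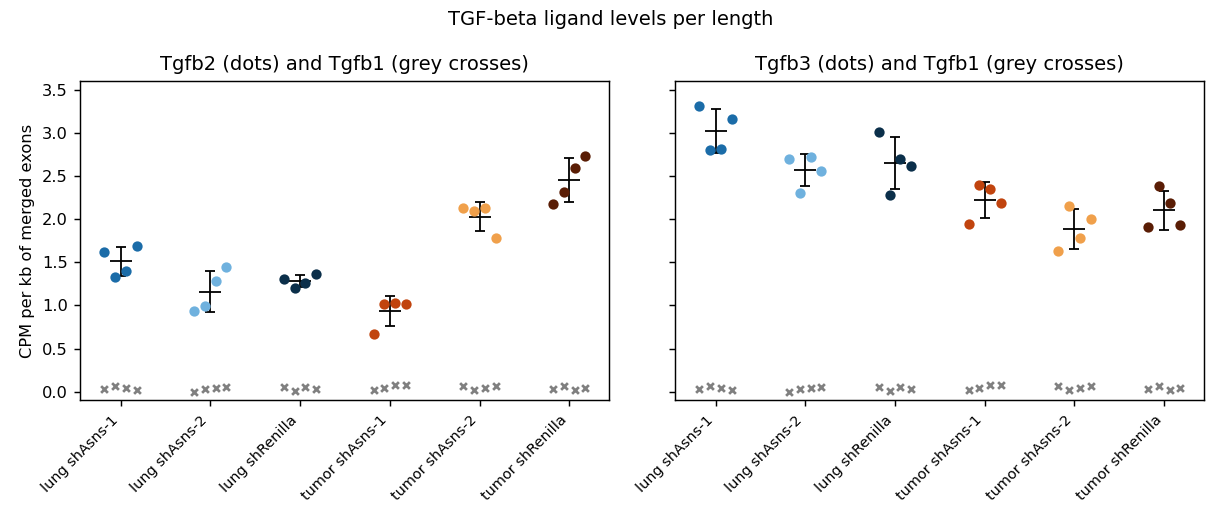
Levels per length of the ligands, in CPM per kilobase of merged exons (vertical axes), in each library of the 6 groups; dots show Tgfb2 (left panel) or Tgfb3 (right panel) with the group mean and SD, and grey crosses show Tgfb1 in both. Tgfb2 averaged 0.932 in tumor shAsns-1, against 2.03 in tumor shAsns-2 and 2.45 in tumor shRenilla, whereas Tgfb3 averaged between 1.89 and 3.02 in all groups and Tgfb1 lay near 0.

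Taken per length, the ligand that made up most of the sum depended on the group. Tgfb2 was 28.9 ± 2.39% of the summed ligand level in tumor shAsns-1, 51.2 ± 4.31% in tumor shAsns-2 and 53.4 ± 3.92% in tumor shRenilla. In lung it was 33 ± 1.24%, 30.7 ± 4.09% and 32.4 ± 2.16% with shAsns-1, shAsns-2 and shRenilla. Tgfb3 made up most of the rest, between its extremes of 69.5 ± 2.97% in tumor shAsns-1 and 45.7 ± 3.73% in tumor shRenilla, and Tgfb1 made up 0.814 to 1.62% on average. Tgfb2 was thus the larger share on average in 2 of 6 groups, tumor shAsns-2 and tumor shRenilla, and Tgfb3 in the other 4. With the length of the longest transcript in place of merged exons, the share of Tgfb1 was 1.51 to 3.01% and the same groups had Tgfb2 or Tgfb3 on top. The window at chr1:186706185-186706214 (RefSeq, GRCm38.p6, minus strand), upstream of Tgfb2, is shown because it holds both of its matches to the SMAD motif, CAGAC, in capitals; 42.2% of all promoters hold CAGAC or GTCTG.
Tgfb2: cacaCAGACccttggtgatcaCAGACagtg

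The level of Tgfb1 was also low among genes of like base composition. With the tested genes in 10 bins of equal size by GC content, the median level per length was 9.26 CPM per kilobase in bin 1, of lowest GC, and 1.25 in bin 10. Tgfb1, with 52.5% GC in its longest transcript, sits in bin 7, where the median was 3.53 and 0.88% of genes lay below it. Tgfb3 has 53% GC, sits in the same bin and lay above 41.6% of its genes.

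**Figure D3:**
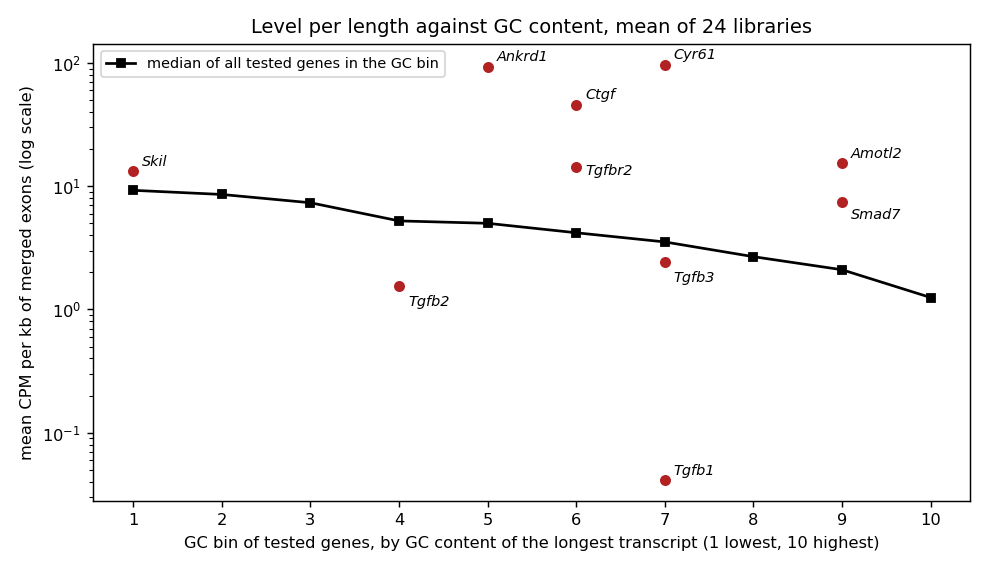
Mean level of each of the 10 genes over 24 libraries (red dots, CPM per kilobase of merged exons, log scale) against the GC bin it belongs to (horizontal axis, bins 1 to 10 of tested genes by GC content), with the median of each bin as black squares. Cyr61 (96.7), Ankrd1 (93.5) and Ctgf (45.8) lay above the medians of their bins, and Tgfb1 (0.0413) lay far below its own.

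Smad7, the inhibitory SMAD that blocks the receptor, was uneven within groups. It had 35.2, 36.9, 40.8 and 45.6 CPM in lung shAsns-1, 22.9, 26.3, 27.5 and 58.2 CPM in lung shAsns-2 and 29.6, 35.1, 31.1 and 31.3 CPM in lung shRenilla. Levels in tumor were 23.5, 21.7, 21.1 and 26.4 CPM with shAsns-1, 24.9, 27.9, 35.4 and 50.5 CPM with shAsns-2 and 38.7, 39.9, 45.5 and 24.9 CPM with shRenilla. Library D of tumor shRenilla fell inside the shAsns-1 range, so those groups overlapped. Smad7 was lower in tumor shAsns-1 than in tumor shRenilla (-0.69 ± 0.23, adjusted p = 0.0217), a call lost without tumor shAsns-1 B (adjusted p = 0.0552) or C (0.0592), without tumor shRenilla B (0.0547) or C (0.0684), and with no filter (0.0761). Against tumor shAsns-2 it missed the threshold (-0.59 ± 0.23, adjusted p = 0.0567) and was called in 5 of 16 alternatives.

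Skil encodes SnoN, a co-repressor of SMAD-driven transcription. It had 118, 124, 120 and 148 CPM in lung shAsns-1, 108, 117, 121 and 173 CPM in lung shAsns-2 and 137, 151, 111 and 110 CPM in lung shRenilla. In tumor it had 90, 84.4, 104 and 96.8 CPM with shAsns-1, 150, 143, 132 and 118 CPM with shAsns-2 and 162, 144, 135 and 167 CPM with shRenilla. The tumor shAsns-1 libraries were the lowest of all 24, and Skil was lower there than in tumor shRenilla (-0.70 ± 0.13, adjusted p = 0.000269) and than in tumor shAsns-2 (-0.53 ± 0.13, adjusted p = 0.00455).

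Tgfbr2, the receptor that binds the ligand first, had 78.9, 101, 91.5 and 86.7 CPM in lung shAsns-1, 94.9, 86.1, 92.6 and 88.2 CPM in lung shAsns-2 and 87.9, 142, 89.6 and 92 CPM in lung shRenilla. In tumor it had 107, 141, 101 and 112 CPM with shAsns-1, 139, 167, 133 and 191 CPM with shAsns-2 and 136, 141, 167 and 115 CPM with shRenilla. It was not called between tumor shAsns-1 and tumor shRenilla (-0.28 ± 0.15, adjusted p = 0.145). It was lower in tumor shAsns-1 than in tumor shAsns-2 (-0.46 ± 0.15, adjusted p = 0.0232), although B of tumor shAsns-1 lay inside the tumor shAsns-2 range. That call was lost without tumor shAsns-1 A, C or D (adjusted p = 0.0571, 0.0818 and 0.0566) and without tumor shAsns-2 D (0.0988). Tumor shAsns-1 and tumor shRenilla overlapped for Tgfbr2, Tgfb3, Smad7 and Tgfb1, and for the other 6 members the tumor shAsns-1 libraries all lay below tumor shRenilla, beside 37.2% of all tested genes without overlap in either direction. Against tumor shAsns-2 the same 6 members did not overlap, beside 29.7% of all genes.

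**Figure D4:**
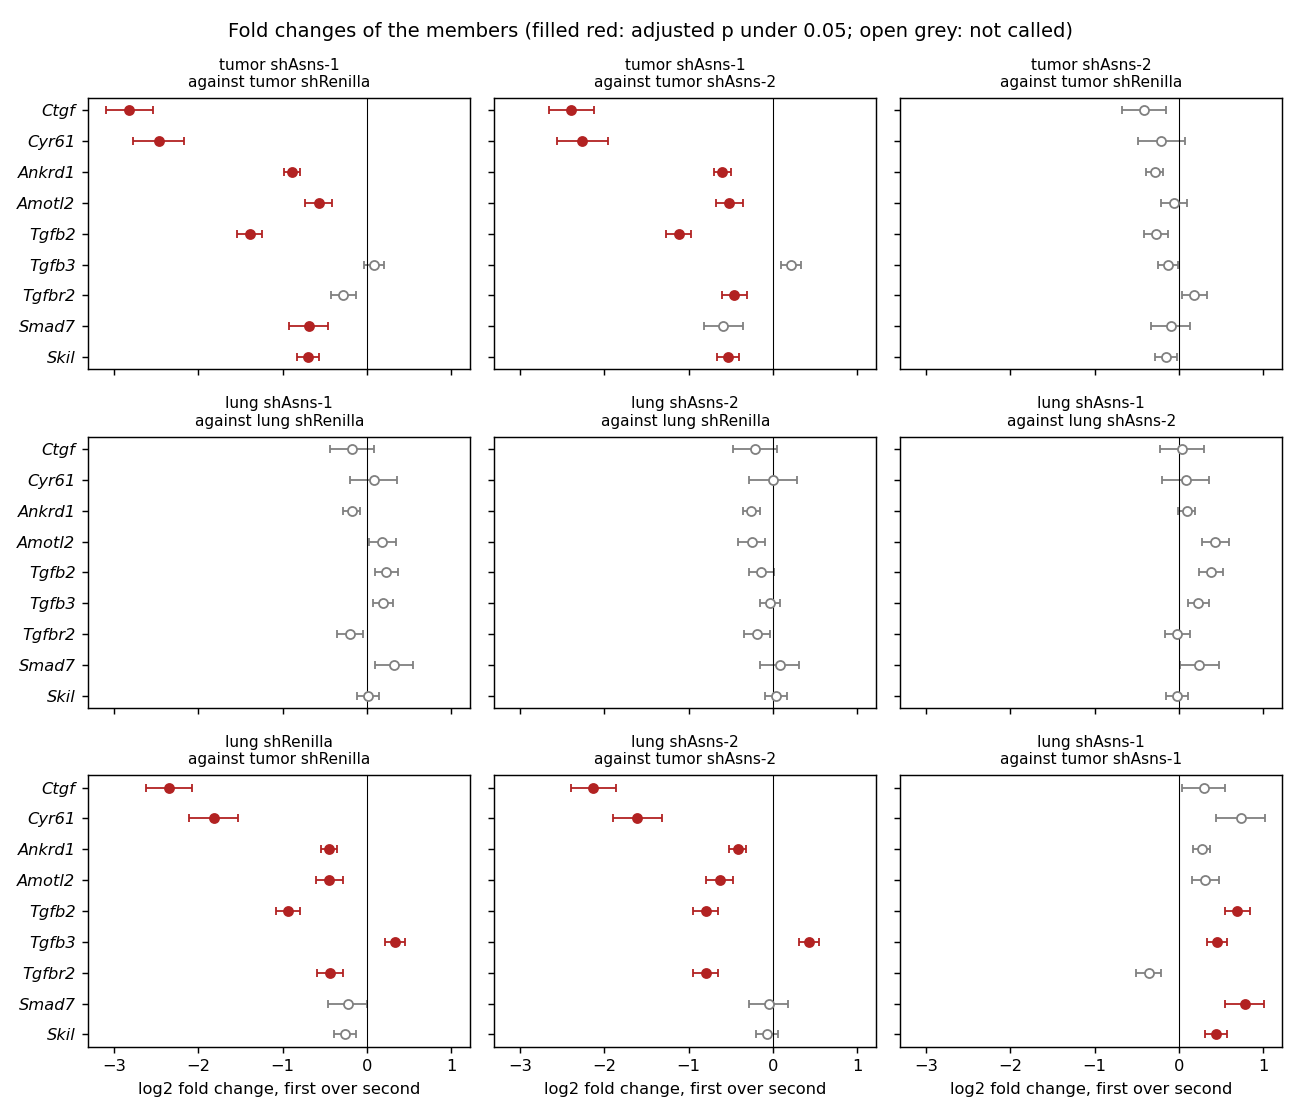
Log2 fold changes of 9 members (horizontal axes, first group over second; points are edgeR estimates and bars are 1 SE) in the 9 comparisons of 2 groups. Filled red points passed an adjusted p under 0.05; they fill the left side of both panels with tumor shAsns-1 over another tumor group and of the lung over tumor panels for shRenilla and shAsns-2, where Tgfb3 alone is red on the right, while the 4 red points of lung over tumor shAsns-1 lie on the right.

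With shAsns-2, where Asns was lower than in shRenilla in tumor-derived cells, edgeR called none of the 10 members. Between tumor shAsns-2 and tumor shRenilla edgeR, DESeq2 and limma each called 0 members, with 0.0634% of all genes called by edgeR. Ankrd1 had the lowest unadjusted p (-0.29 ± 0.10, unadjusted p = 0.0056, adjusted p = 0.451), and the only member whose libraries did not overlap was Tgfb2, beside 3.33% of all genes. Between lung shAsns-2 and lung shRenilla edgeR also called 0 members, with 0% of all genes called although 1068 had an unadjusted p under 0.05, and DESeq2 called 0 members. The libraries did not overlap for Ankrd1 alone, beside 3.17% of all genes. Limma with library weights, which called 12.3% of all genes and 8.86% lower, called 4 members, all lower in lung shAsns-2: Ctgf (adjusted p = 0.0188), Cyr61 (0.00789), Ankrd1 (0.00395) and Tgfb2 (0.0402). Ctgf was at -0.21 ± 0.26 with all libraries and at -0.68 (adjusted p = 0.14) without lung shAsns-2 D, and Cyr61 at -0.00 ± 0.28 and -0.63 (adjusted p = 0.178).

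Between lung shAsns-1 and lung shRenilla edgeR and DESeq2 called 0 members, with 0.206% of all genes called by edgeR, and limma, with 6% of all genes called and 3.25% higher, called Amotl2 higher (adjusted p = 0.0191). No member had an unadjusted p under 0.05 there in edgeR, and only the Smad7 libraries did not overlap, beside 10.9% of all genes. Between lung shAsns-1 and lung shAsns-2 edgeR and DESeq2 again called 0, with 0.261% of all genes called by edgeR, and the lowest unadjusted p-values were those of Amotl2 (0.43 ± 0.16, unadjusted p = 0.0119, adjusted p = 0.534) and Tgfb2 (0.38 ± 0.14, unadjusted p = 0.0155, adjusted p = 0.598). Of the members, Tgfb3 alone had libraries without overlap, beside 5.39% of all genes. Limma, with 15.2% of all genes called and 8.66% higher, called 5 members there, all higher in lung shAsns-1: Ctgf, Cyr61, Amotl2, Tgfb2 and Smad7. When lung shAsns-2 D and lung shRenilla B were both left out, edgeR called Cyr61 (adjusted p = 0.0466) and Amotl2 (0.0481), with 1.42% of all genes called. Both libraries are the ones farthest from the median of the within-group deviations in Ctgf. Cyr61 and Amotl2 deviated together with Ctgf, so these calls are not independent of which libraries were left out.

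Between the sites, lung-derived cells had less of the YAP targets, Tgfb2 and Tgfbr2 and more Tgfb3 than tumor-derived cells, with shRenilla and with shAsns-2. Between lung shRenilla and tumor shRenilla 1 member was higher and 6 lower, with 21.8% of all genes called, 12% higher and 9.82% lower. Ctgf averaged 63.5 ± 17.9 CPM in lung shRenilla and 324 ± 82 CPM in tumor shRenilla (-2.35 ± 0.27, adjusted p = 2.73e-07), and Cyr61 averaged 114 ± 7.29 CPM in lung and 402 ± 94 CPM in tumor (-1.82 ± 0.29, adjusted p = 4.13e-05). Ankrd1 (-0.45 ± 0.10, adjusted p = 0.00112) and Tgfb2 (-0.94 ± 0.14, adjusted p = 2.16e-05) were also lower in lung and, like Ctgf and Cyr61, did not overlap between the groups, beside 22.2% of all genes. Amotl2 (-0.45 ± 0.16, adjusted p = 0.0423), Tgfbr2 (-0.44 ± 0.15, adjusted p = 0.0322) and Tgfb3 (0.33 ± 0.12, adjusted p = 0.0473) passed narrowly. The count was 4 in place of 7 without tumor shRenilla C, without lung shRenilla A, C or D, and when the fit held just these 2 groups, which called 15.5% of all genes. The call of Tgfb3 was also lost without tumor shRenilla A or D (adjusted p = 0.149 and 0.132), with no filter (0.144) and with the replicate letter as a block (0.0663), that of Amotl2 with offsets for GC content and length (0.127), and those of Amotl2 and Tgfbr2 without tumor shRenilla B (0.0598 and 0.0526).

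Between lung shAsns-2 and tumor shAsns-2 the same 7 genes were called in the same directions, 1 higher and 6 lower, with 20.9% of all genes called, 10.1% higher and 10.9% lower. Ctgf averaged 55.1 ± 33.8 CPM in lung shAsns-2 and 242 ± 57.1 CPM in tumor shAsns-2 (-2.13 ± 0.27, adjusted p = 1.64e-06), and without lung shAsns-2 D the log2 fold change was -2.62 (adjusted p = 1.51e-09). Cyr61 averaged 114 ± 85.7 CPM in lung and 348 ± 86.8 CPM in tumor (-1.61 ± 0.29, adjusted p = 0.00022) and was at -2.25 without that library (adjusted p = 1.66e-08), a fold more than 1.5 times larger. Tgfbr2 averaged 90.5 ± 3.99 CPM in lung and 158 ± 26.9 CPM in tumor (-0.80 ± 0.15, adjusted p = 0.000281). Tgfb3 was higher in lung (0.43 ± 0.12, adjusted p = 0.0142). Amotl2 (-0.63 ± 0.16), Tgfb2 (-0.80 ± 0.15) and Ankrd1 (-0.42 ± 0.10) were lower, and these 7 genes had no overlap between lung and tumor, beside 18.2% of all genes. The call count stayed at 7 whichever library was left out, and the call of Tgfb3 was lost when the fit held just these 2 groups (adjusted p = 0.0698). Epithelial carcinoma markers moved with the site as well: 4 of 6 were lower in lung with each of these hairpins. Of the 5 tested fibroblast markers, 2 were higher and 1 lower in lung with shRenilla, and 1 was higher and 1 lower with shAsns-2. With each hairpin 1 of 4 leukocyte markers and the 1 tested smooth muscle marker were higher in lung, and 1 of 3 platelet markers was lower. The part of these markers in the site results was not tested.

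With shAsns-1, the members called between the sites were all higher in lung, and Tgfb3 and Tgfb2 were the ones among them that were called with the other hairpins too, Tgfb3 in the same direction and Tgfb2 in the opposite one. Between lung shAsns-1 and tumor shAsns-1, 4 members were higher in lung and 0 lower, with 8.55% of all genes called and 6% called higher. These were Tgfb2 (8.73 ± 0.995 CPM in lung and 5.39 ± 1 CPM in tumor, 0.69 ± 0.15, adjusted p = 0.00439), Tgfb3 (0.45 ± 0.12, adjusted p = 0.0206), Smad7 (0.78 ± 0.23, adjusted p = 0.0332) and Skil (0.44 ± 0.13, adjusted p = 0.0401). Cyr61 averaged 121 ± 19.9 CPM in lung and 72.7 ± 8.97 CPM in tumor without overlap and was not called (0.73 ± 0.29, adjusted p = 0.105). Ctgf (0.29 ± 0.26, adjusted p = 0.512) and Ankrd1 (0.27 ± 0.10, adjusted p = 0.084) were not called either, though their libraries did not overlap, which made 7 members without overlap beside 29.9% of all genes. The count of 4 was not stable: it was 1 without tumor shAsns-1 A or D or lung shAsns-1 A or D and 2 without tumor shAsns-1 B or lung shAsns-1 B or C, whereas it was 9 when the fit held just these 2 groups, with 30.6% of all genes called, and 8 with limma, with 32.6% called. Tgfb2 was called in all 16 alternatives. Tgfbr2 was lower on average in lung, as with the other hairpins, and was not called (-0.36 ± 0.15, adjusted p = 0.12). The counts of 9 and 8 include Tgfbr2, called lower in lung in the fit of these 2 groups (adjusted p = 0.0163) and by limma (0.0146). Of the carcinoma markers 3 of 6 were lower in lung, while 3 of 5 fibroblast, 2 of 4 leukocyte, 1 of 3 platelet markers and the 1 tested smooth muscle marker were higher. Smad7, Skil and Tgfb3 were no longer called without lung shAsns-1 D, the library highest in fibroblast markers (adjusted p = 0.11, 0.141 and 0.0865). The same 3 calls were lost without lung shAsns-1 A (0.0513, 0.0561 and 0.0737) and without tumor shAsns-1 A (0.0729, 0.0873 and 0.091). For Smad7 and Skil, the adjusted p without lung shAsns-1 D was the highest of the 16 alternatives. The part of the markers in these results was not tested.

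The difference between the sites in the shAsns-1 label was tested directly, as the log2 fold change of shAsns-1 over shRenilla in lung minus that in tumor. It was called for 7 of 10 members, all positive, with 14.2% of all genes called and 6.96% positive. Ctgf had the largest difference (2.64 ± 0.37, adjusted p = 2.12e-05), from -0.18 ± 0.26 in lung and -2.82 ± 0.28 in tumor. Cyr61 differed by 2.55 ± 0.41 (adjusted p = 0.000106), Tgfb2 by 1.63 ± 0.20 (adjusted p = 4.91e-06), Ankrd1 by 0.72 ± 0.14 (adjusted p = 0.000779) and Skil by 0.70 ± 0.19 (adjusted p = 0.0139). Amotl2 differed by 0.75 ± 0.22 (adjusted p = 0.0236, or 0.0963 with offsets for GC content and length). Smad7 differed by 1.00 ± 0.32 (adjusted p = 0.0357), a call lost in 12 of 24 alternatives with a highest adjusted p of 0.113. The same difference for shAsns-2 was called for 0 members by edgeR, DESeq2 and limma, with 0% of all genes called by edgeR and 599 at an unadjusted p under 0.05. Ctgf was there at 0.21 ± 0.36 (adjusted p = 0.974).

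Library by library, Ctgf, Cyr61, Smad7 and Amotl2 deviated from their group means together, and Ankrd1 did not join them. With each group's mean removed from the log2 CPM, the correlation with Ctgf over 24 libraries was r = 0.915 for Smad7, 0.884 for Cyr61 and 0.785 for Amotl2, against 0.0953 for Ankrd1 and 0.303 for Tgfb2. Lung shAsns-2 D, 1.10 above its group mean, and lung shRenilla B, 0.53 above, lay farthest from the median of these deviations in Ctgf. Lung shAsns-2 A (-0.62) and tumor shRenilla D (-0.55) lay slightly farther from their group means than lung shRenilla B and were kept. Without lung shAsns-2 D and lung shRenilla B, r was 0.9, 0.888, 0.755, -0.0169 and 0.129 for the same genes. Skil was at 0.443 with these 2 libraries and at -0.053 without them, so its relation rests on them. Amotl2 and Tgfbr2 also deviated together (r = 0.801). The libraries share their preparation and their scaling, and these values describe the 24 libraries only.

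**Figure D5:**
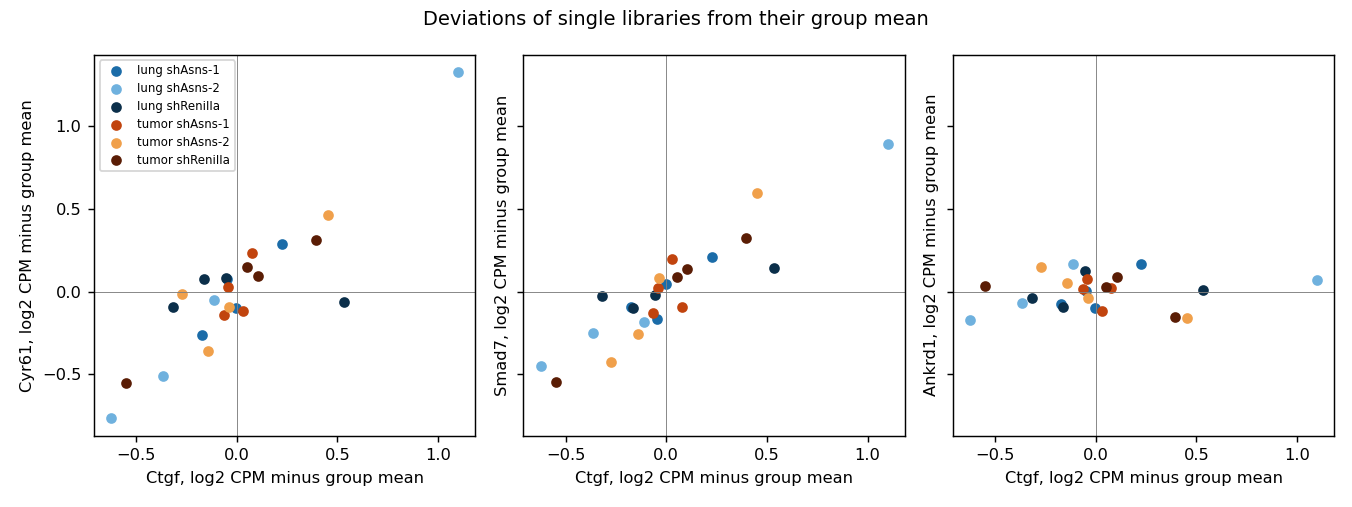
Deviation of each library from its group mean in log2 CPM, for Cyr61 (left), Smad7 (middle) and Ankrd1 (right) against Ctgf, with 24 libraries coloured by group. Cyr61 and Smad7 rise with Ctgf across the whole range, with lung shAsns-2 D at the upper right, while Ankrd1 stays flat.

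The genes most like Ctgf over the 24 libraries, among 8012 genes with a mean log2 CPM of at least 3, were Adamts1 (r = 0.982), Tmcc3 (0.977), Slc38a1 (0.976), Adam12 (0.975) and Lif (0.974). Because the libraries form a high and a low set for Ctgf, these r values mostly record that split. Adamts1, a secreted metalloprotease gene, averaged 26.8 CPM in tumor shAsns-1, 156 CPM in tumor shAsns-2 and 187 CPM in tumor shRenilla. Adam12, a membrane-bound metalloprotease gene, averaged 5.48, 34.1 and 39.6 CPM in the same groups, and Lif, a cytokine gene of the interleukin 6 family, averaged 6.41, 18.8 and 20 CPM.

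Of 41 further genes of the TGF-beta pathway, from ligand activation to SMADs and target genes, 36 were tested. Between tumor shAsns-1 and tumor shRenilla 4 were higher and 14 lower, beside 33.9% of all genes called and 17.7% lower, and their median log2 fold change was -0.23, beside -0.01 over all tested genes. The integrin gene Itgb6, whose product releases latent TGF-beta, averaged 2.57 ± 0.368 CPM in tumor shAsns-1 and 19 ± 2.8 CPM in tumor shRenilla (-2.88 ± 0.21, adjusted p = 7.35e-11). Fstl3, for a secreted activin inhibitor, was lower at under 1 CPM in both groups (-2.59 ± 0.57, adjusted p = 0.000893). The co-receptor gene Tgfbr3 was higher, at 27.5 ± 2.86 CPM in tumor shAsns-1 and 8.09 ± 1.35 CPM in tumor shRenilla (1.77 ± 0.17, adjusted p = 1.64e-08), as were the signal transducer Smad3 (48.6 ± 5.75 and 23.3 ± 3.49 CPM, 1.06 ± 0.14, adjusted p = 1.46e-06) and Ltbp3, for a latent TGF-beta binding protein (0.70 ± 0.17, adjusted p = 0.0023). The genes of this list thus did not move one way. Inhba, which encodes the activin A subunit, averaged 8.14 ± 0.748 CPM in tumor shAsns-1 and 39.3 ± 8.03 CPM in tumor shAsns-2 (-2.26 ± 0.28, adjusted p = 1.37e-06), a comparison with 2 higher and 12 lower of the 36, beside 27.1% of all genes called.

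In the lung against tumor comparisons 6 of the 36 were higher and 11 lower with shRenilla, 6 higher and 9 lower with shAsns-2, and 8 higher and 0 lower with shAsns-1, beside 21.8, 20.9 and 8.55% of all genes called. With shRenilla, Tgfbr3 averaged 25.8 ± 6.22 CPM in lung and 8.09 ± 1.35 CPM in tumor (1.68 ± 0.17, adjusted p = 4.47e-08), and Itgb6 averaged 3.51 ± 0.535 CPM in lung and 19 ± 2.8 CPM in tumor (-2.43 ± 0.20, adjusted p = 1.23e-09). With shAsns-1, Id1, a target of SMAD signalling that encodes an inhibitor of differentiation factors, averaged 100 ± 13.7 CPM in lung and 45.6 ± 7.64 CPM in tumor (1.14 ± 0.22, adjusted p = 0.00189). The difference between sites in the shAsns-1 label was positive for 12 and negative for 2 of the 36, beside 14.2% of all genes called, and the 2 were Tgfbr3 (-1.79 ± 0.24, adjusted p = 9.07e-06) and Smad3 (-0.90 ± 0.19, adjusted p = 0.00216). In the other comparisons, tumor shAsns-2 against tumor shRenilla, the lung hairpins against each other and the difference in shAsns-2, edgeR called 0 of the 36.

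Among 28 tested Hippo regulators of 29 listed, Wwtr1, which encodes TAZ, moved against the YAP and TAZ targets above. It averaged 418 ± 38.6 CPM in tumor shAsns-1 and 203 ± 6.56 CPM in tumor shRenilla (1.04 ± 0.15, adjusted p = 9.96e-06) and was higher than in tumor shAsns-2 too (0.79 ± 0.15, adjusted p = 0.000389). In all, 3 regulators were higher and 5 lower in tumor shAsns-1 than in tumor shRenilla and 20 were not called, a share of calls below the 33.9% of all genes. Sav1, the scaffold of the Hippo kinases, was higher (73.6 ± 9.12 and 43.4 ± 9.28 CPM, 0.76 ± 0.18, adjusted p = 0.00207), as was the TEAD factor gene Tead2 (0.42 ± 0.14, adjusted p = 0.0234). Ajuba, whose LIM protein restrains the LATS kinases, was lower (54.9 ± 5.44 and 116 ± 18.5 CPM, -1.08 ± 0.13, adjusted p = 6.59e-07), as were the upstream activators Wwc1 (-0.73 ± 0.13, adjusted p = 0.000127) and Rassf1 (-0.52 ± 0.10, adjusted p = 0.000248). Between lung shRenilla and tumor shRenilla 2 were higher and 3 lower, beside 21.8% of all genes called. Wwtr1 averaged 401 ± 141 CPM in lung and 203 ± 6.56 CPM in tumor (0.98 ± 0.15, adjusted p = 2.81e-05), and Ajuba 51.8 ± 9.12 CPM in lung and 116 ± 18.5 CPM in tumor (-1.16 ± 0.13, adjusted p = 2.57e-07).

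A further list held 28 other YAP target genes, of which 23 were tested and 5 also stand among the Hippo regulators. Between tumor shAsns-1 and tumor shRenilla 2 were higher, 7 lower and 14 not called, beside 33.9% of all genes called and 17.7% lower. Their median log2 fold change was -0.25, beside -0.01 over all tested genes. Edn1, which encodes the peptide endothelin 1, averaged 1.02 ± 0.16 CPM in tumor shAsns-1 and 17.5 ± 1.8 CPM in tumor shRenilla (-4.12 ± 0.26, adjusted p = 5.57e-12), and Ptgs2, for the prostaglandin synthase COX-2, averaged 580 ± 39.5 CPM and 1630 ± 251 CPM (-1.49 ± 0.24, adjusted p = 2.85e-05). Asap1 (0.34 ± 0.10, adjusted p = 0.0116) and Myof (0.22 ± 0.08, adjusted p = 0.0391) were the 2 higher ones, both by small amounts. Between lung and tumor 4 were higher and 5 lower with shRenilla, 3 higher and 9 lower with shAsns-2 and 4 higher and 0 lower with shAsns-1, beside 21.8, 20.9 and 8.55% of all genes called. With shAsns-2, 10.9% of all genes were lower. The difference between sites in the shAsns-1 label was positive for 6 and negative for 0 of the 23, beside 14.2% of all genes called and 6.96% positive. The genes called higher in lung with every hairpin included Nt5e, for the ecto-nucleotidase CD73 (418 ± 100 CPM in lung shRenilla and 205 ± 23.7 CPM in tumor shRenilla, 1.03 ± 0.15, adjusted p = 1.52e-05), and Ereg, for the EGF receptor ligand epiregulin (1.55 ± 0.572 and 0.113 ± 0.0916 CPM, 3.72 ± 0.66, adjusted p = 0.000135). Between lung shAsns-1 and lung shAsns-2, 2 of the 23 were higher. Ereg had 2.4, 1.21, 2.89 and 11.4 CPM in lung shAsns-1 A to D and 0.76, 0.743, 0.976 and 1.21 CPM in lung shAsns-2 (2.27 ± 0.45, adjusted p = 0.0207), so that D was far above the other 3 and the groups touched at 1.21 CPM. Gadd45a, for a stress-induced growth arrest protein, had 11.3, 11.9, 12.1 and 20.1 CPM in lung shAsns-1 and 7.6, 8.24, 7.36 and 8.21 CPM in lung shAsns-2 without overlap (0.82 ± 0.16, adjusted p = 0.0206), again with D highest.

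Carcinoma markers moved with the tumor shAsns-1 group as well: 4 of 6 were lower there than in tumor shRenilla, with sums of 452 to 606 CPM against 739 to 892 CPM. Of all tested genes 33.9% were called in that comparison and 17.7% were lower. Of the 5 tested fibroblast markers 1 was higher and 1 lower, and of the 4 tested leukocyte markers 2 were lower. Summed endothelial markers stood at 5.25 to 5.8 CPM in tumor shAsns-1 and 1.89 to 3.52 CPM in tumor shRenilla, platelet markers at 1.66 to 2.59 CPM and 3.34 to 4.41 CPM, and smooth muscle markers at 0.496 to 0.583 CPM and 0.853 to 1 CPM. The part of these shifts in the levels of the 10 genes was not tested.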

How the data were processed

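The data are 24 RNA libraries of 4T1-T cells, made with Trizol and the NuGEN Ovation RNAseq V2 kit per the labels. The authors deposited raw counts for each gene symbol, and the submitters' processing notes name Bowtie2, HTSeq and mm10 without versions; the annotation, the strand setting and any filter are not given in the sources used here. Each of the 24 columns was matched to 1 sample, and 0 columns were left without one. No pair of libraries was a duplicate (lowest chi-square per degree of freedom within groups 4.97).

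Tests on the counts used edgeR 4.0.16 (R 4.3.3, quasi-likelihood fit, robust, TMM factors 0.908 to 1.09, filterByExpr by group) in 1 model of all 24 libraries with 1 mean per group. Benjamini-Hochberg adjustment ran over all 12625 tested genes, and genes were called at an adjusted p under 0.05. The biological coefficient of variation was 14.9%. Each SE is the size of the log2 fold change divided by the root of its F statistic. The fit was tested on simulated data. Depth, 8.48 to 38 M counts per library (median 28.7 M), limits Tgfb1 most.

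Log2 CPM for correlations used a prior count of 2. Symbols were matched to GENCODE M21, by older names where needed (23066 of 23478), and 99% of tested genes had GC content and length. RefSeq promoters (GRCm38.p6) were searched on both strands for the TEAD motif GGAATG, for the SMAD motif CAGAC and for the AP-1 motif TGACTCA. The AP-1 motif is in 4.46% of promoters and in none of the 6 members searched.

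The 10 genes and the 3 gene lists were chosen with earlier results of these data known. The text names all 10 genes, Asns, up to 3 called genes per list, direction and comparison with the largest fold change, and the 5 genes most correlated with Ctgf. A gene that this rule selects is not reported here. The alternatives were a fit without filter, a fit of just the groups compared, a replicate block, offsets for GC content and length, DESeq2 1.42.0, edgeR with the size factors of DESeq2, limma 3.58.1 (library weights), leaving out each library, and leaving out lung shAsns-2 D and lung shRenilla B together. Both of these last libraries lay farthest from the median of the within-group deviations in Ctgf, a member. Figures were drawn with matplotlib 3.10.9.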

Additional observations from a re-analysis of the deposited data

Results flagged for a closer look

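In 5 of 60 sets of 4 libraries, 1 library lay apart from the other 3 of its group by Dixon's criterion, and chance alone marks about 1 set in 20. Amotl2 stood at 148 CPM in tumor shAsns-2 D, where the other 3 libraries had 102 to 108 CPM. Tgfb2 was at 3.89 CPM in tumor shAsns-1 A, against 5.86 to 5.92 CPM in B to D, and at 10.3 CPM in tumor shAsns-2 D, against 12.1 to 12.3 CPM in A to C. Smad7 was at 58.2 CPM in lung shAsns-2 D, against 22.9 to 27.5 CPM in A to C. Tgfbr2 was at 142 CPM in lung shRenilla B, against 87.9 to 92 CPM in the others.

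The log2 fold change of shAsns-1 over shRenilla differed between lung and tumor for 7 genes by an interaction contrast in edgeR: Ctgf by 2.64, Cyr61 by 2.55, Tgfb2 by 1.63, Smad7 by 1.00, Amotl2 by 0.75, Ankrd1 by 0.72 and Skil by 0.70, each higher in lung.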

How the results depend on the processing

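Of 1909 values of single genes under other settings, 1709 kept their direction and their side of the threshold, 70 lost a call, 36 gained one, 94 changed sign while called neither way, and 0 changed sign while called. Counts of members called stayed within 1.5 times of the reported ones except as follows. Limma with library weights called 1 between lung shAsns-1 and lung shRenilla, 4 between lung shAsns-2 and lung shRenilla, 5 between lung shAsns-1 and lung shAsns-2 and 8 between lung shAsns-1 and tumor shAsns-1. Leaving out lung shAsns-2 D together with lung shRenilla B gave 2 between lung shAsns-1 and lung shAsns-2 and 7 between lung shAsns-1 and tumor shAsns-1. A fit of just the 2 groups gave 4 between lung shRenilla and tumor shRenilla and 9 between lung shAsns-1 and tumor shAsns-1, which was 2 with no filter. The counts of 8, 7 and 9 between lung shAsns-1 and tumor shAsns-1 each include Tgfbr2, called lower in lung. Leaving out each library gave 4 to 7 between lung shRenilla and tumor shRenilla and 1 to 3 between lung shAsns-1 and tumor shAsns-1. Within 1.5 times of the reported counts, it gave 5 to 8 between tumor shAsns-1 and tumor shAsns-2. It gave 6 to 7 between tumor shAsns-1 and tumor shRenilla and for the shAsns-1 difference between sites, also within that limit. The cause was not tested. Of all genes called between lung shAsns-1 and tumor shAsns-1, 758 were higher and 321 lower, and 942 and 696 with GC content and length offsets. The values did not settle whether the letters pair the libraries. Of 60 same-letter pairs 24 had r over 0.1 (median 0.0458, range -0.746 to 0.657). Of the letters A to D, 11 of 24 libraries correlated best with their own. With the letter as a replicate block 6 members in place of 7 were called between lung shRenilla and tumor shRenilla. No other count moved, and 7 were called between tumor shAsns-1 and tumor shRenilla as before. Depth limits Tgfb1, with 139 counts in all.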
